A study of Drosophila melanogaster with 16 samples.

Results

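Transcripts were compared between whole Drosophila melanogaster embryos that overexpressed gcm and whole control embryos, both at stage 11. The comparison rests on 4 arrays titled whole scagcm 1 to 4, called gcm arrays here, and 3 arrays titled whole control 1, 2 and 4. Arrays were chosen by title, and these 7 are among 16 deposited arrays, of which 8 are labelled as whole embryos. Per the labels, the controls were wild type, and neuroectodermal cells were marked with mCD8-GFP, a fluorescent label at the cell surface, in the wild-type and in the overexpressing embryos. The other arrays of the series read such cells after purification on magnetic beads. What drove gcm is named in the titles only by the letters sca, and neither the cells that received it nor the number of embryos per sample is stated in the labels. Since no label states that each array came from its own batch of embryos, the p-values speak of the spread among these 7 arrays, which may be technical. An extract of whole embryos mixes all tissues, so fewer cells of a type and less RNA per cell cannot be told apart.

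The gene gcm (glial cells missing, also glide) encodes a zinc-containing transcription factor that directs neural precursors to a glial fate in the fly embryo. Its best known target is repo, a homeobox gene that is expressed in lateral glia and maintains their differentiation. The factor and its relative gcm2 also act in plasmatocytes, the embryo's macrophages, and gcm acts in some tendon cells. At stage 11 neuroblasts are dividing in the neuroectoderm and the first glia appear.

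Affymetrix arrays gave 1 intensity for each of 13966 probe sets that are not array controls. Over the 7 arrays the median intensity ran from 36.2 to 58.4. The trimmed mean intensity was 120 ± 6.16 (SD, n = 4) on gcm arrays and 143 ± 24.5 (SD, n = 3) on control arrays (exact two-sided permutation p = 0.229). The share of probe sets below an intensity of 16 was 33.6% ± 1.9 (SD, n = 4) on gcm arrays and 29.5% ± 0.436 (SD, n = 3) on controls, with no overlap. Its exact two-sided permutation p of 0.0571 is the smallest that 3 arrays against 4 allow. The log2 ratios of 3' to 5' probe sets, a measure of RNA length, overlapped between the groups for actin, eIF4a and gapdh (exact permutation p of 0.914, 0.629 and 0.171). Levels below are log2 of the quantile-normalised intensity plus 16, so that 4 is an intensity of 0 and 5 an intensity of 16, near background. Changes are differences of these levels, gcm minus control, and understate the change of dim genes. Precision is limited by how few arrays each group has.

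The array labelled whole control 3 had the profile of a sorted array and does not enter the main comparison. With all 15 distinct arrays normalised together, its correlation over probe sets was 0.653 to 0.728 with the other whole embryo arrays and 0.913 to 0.944 with the sorted arrays. Among themselves the remaining whole embryo arrays correlated at 0.932 to 0.981. On that array gcm stood at 13.12, against 8.07 to 8.66 on the other 3 controls and 13.06 to 13.12 on sorted gcm arrays. Its repo level was 10.79, against 6.14 to 6.32 on those controls and 10.68 to 11.30 on sorted gcm arrays. The neuroblast gene wor stood at 11.72 there and at 7.89 to 8.79 on the other whole embryo arrays. The array thus goes against its label both as a whole embryo and as a control. With it put back, the comparison below had 0 calls by limma, with 1083 probe sets at an unadjusted p under 0.05, and the change of gcm itself was 1.22 (adjusted p = 0.731).

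**Figure D1:**
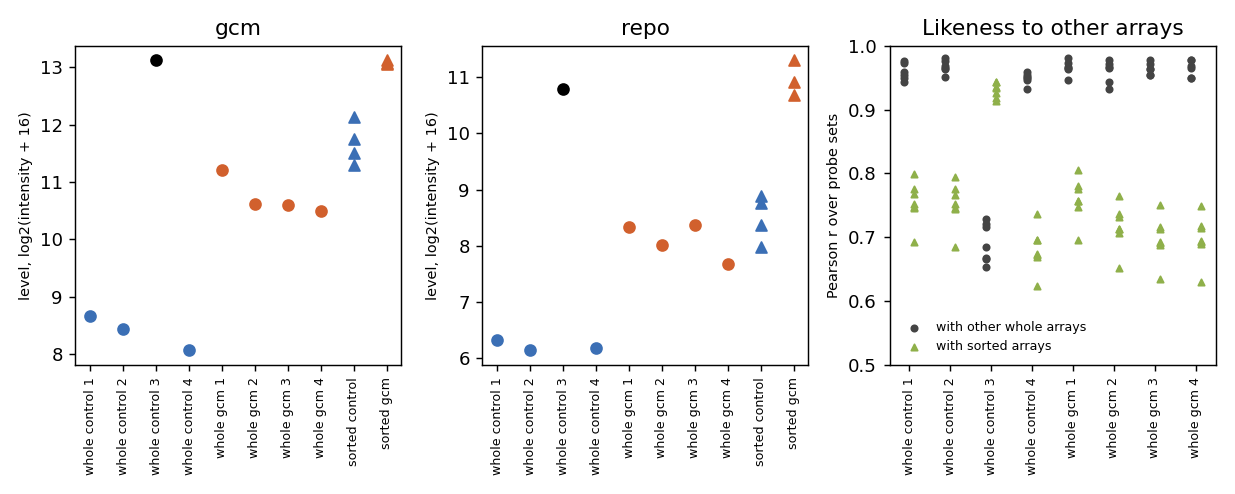
Levels of gcm and of repo, as log2(intensity + 16) with all arrays normalised together, on the 8 arrays labelled whole embryo (circles, controls blue, gcm orange, the array labelled whole control 3 black) and on sorted arrays (triangles), and the Pearson correlation of each whole embryo array with other whole (circles) and sorted (triangles) arrays. The array labelled whole control 3 has a gcm level of 13.12, within the sorted gcm arrays, and correlates with sorted arrays at 0.913 to 0.944.

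The first question was which transcripts differ in the whole embryo when gcm is overexpressed. By limma, 11 probe sets were higher with gcm at an adjusted p under 0.05 (0.0788% of those tested) and 3 were lower (0.0215%). All 14 separated the groups without overlap, and the median change over all probe sets was -0.02. At an unadjusted p under 0.05 there were 1931 probe sets, 981 of them higher and 950 lower. Arrays of the same number tended to deviate together from their group means, though control 4 did so more with gcm 3 than with gcm 4. No label states a pairing. With that number as a block, limma called 199 probe sets (1.42%), 172 higher and 27 lower, which hold all 14. Adjusted p-values with this block are given below as blocked values where they change a call. The count depended on single arrays. It was 4, 41 and 7 without control 1, 2 or 4, and 524, 6, 3 and 5 without gcm 1, 2, 3 or 4. The blocked count was 73, 70 and 12 without control 1, 2 or 4, and 47, 33, 209 and 1 without gcm 1, 2, 3 or 4. On the intensities as deposited, without normalisation, the count was again 14, but with 5 higher and 9 lower, beside a median over all probe sets of -0.19, and the blocked count was 0, with 2912 at an unadjusted p under 0.05.

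The overexpressed gene and its glial target were both among the calls. The single probe set of gcm (chromosome 2L, 9579498 to 9581745 in assembly release 6) stood at 8.87, 8.66 and 8.31 on control arrays 1, 2 and 4 and at 11.63, 10.92, 10.91 and 10.77 on gcm arrays 1 to 4. Every gcm array lay above every control, with gcm 1 the highest. The change was 2.44 (SE 0.22), or 5.44-fold (adjusted p = 0.00527, limma). The labels do not tell whether this probe set detects transcripts of the transgene, of the endogenous gene or of both. The target repo (3R, 18236192 to 18239602) stood at 6.53, 6.32 and 6.37 on controls and at 8.57, 8.26, 8.59 and 7.94 on gcm arrays. It rose 3.82-fold, a change of 1.93 (SE 0.19, adjusted p = 0.00749). The call of repo was lost without control 1 (adjusted p = 0.0518) and without gcm 3 (0.0524), while gcm kept its call without any single array. The relative gcm2 read 6.10, 6.10 and 6.03 on controls and 6.05, 5.77, 5.15 and 5.83 on gcm arrays, overlapping groups with a change of -0.38 (SE 0.25, adjusted p = 0.562).

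A group of little-characterised genes rose beside repo. CG13101 (2L, 8977834 to 8984872) had the largest change of any called probe set. It read 5.21, 6.02 and 5.51 on controls and 8.86, 8.23, 8.06 and 8.36 on gcm arrays, 6.95-fold (change 2.80, SE 0.25, adjusted p = 0.00527). CG12910 (2R, 10265057 to 10269205) read 6.80, 6.47 and 6.5 on controls and 9.03, 8.52, 8.79 and 8.33 on gcm arrays. Its 4.22-fold rise (adjusted p = 0.00544) missed the threshold only without gcm 3 (adjusted p = 0.0524). CG15822 went from 4.57, 4.57 and 4.39, near background, to 6.18, 5.99, 6.06 and 5.89, a change of 1.52 (SE 0.18, adjusted p = 0.0278). CG1648 likewise left the background, from 4.75, 4.81 and 4.78 on controls to 6.80, 6.13, 6.69 and 6.6 (change 1.78, SE 0.22, adjusted p = 0.0279). For both, the size of the change depends on the added 16. One more called probe set is assigned to 3 genes, CG44000, CG33995 and CG44001, and changed by 1.16 (SE 0.15, adjusted p = 0.0289).

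The other genes that rose have known products. Nagk, an N-acetylglucosamine kinase of amino sugar salvage, had the smallest p of all calls. It stood at 8.28, 8.19 and 8.31 on controls and at 10.17, 9.76, 9.96 and 9.86 on gcm arrays, 3.19-fold (change 1.68, SE 0.13, adjusted p = 0.00356). It kept its call without any single array, as CG13101 did. rost (rolling stone), a membrane protein of myoblast fusion, read 5.77, 6.30 and 5.87 on controls and 7.24, 7.99, 7.78 and 8.02 on gcm arrays (change 1.78, adjusted p = 0.0358). dnd (dead end), the Arl3 small GTPase known from tracheal tube fusion, read 5.06, 4.99 and 4.76 against 6.4, 6.52, 6.58 and 6.55 (change 1.58, adjusted p = 0.0278). Jhbp1, a juvenile hormone binding protein, read 5.37, 5.29 and 5.61 against 7.06, 6.72, 7.42 and 6.87 (change 1.60, adjusted p = 0.0492).

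Transcripts of 3 developmental genes fell. al (aristaless), a homeobox gene of appendage and head primordia, fell from 6.62, 6.42 and 6.54 on controls to 4.73, 4.92, 5.27 and 4.88 on gcm arrays, a change of -1.58 (SE 0.21, adjusted p = 0.0312). cold (coiled), a Ly6 protein of septate junctions, fell from 9.16, 9.01 and 9.20 to 8.12, 8.14, 8.14 and 8.30 (change -0.95, SE 0.12, adjusted p = 0.0301). chinmo, a zinc finger gene of neuronal temporal identity, fell in 1 of its 3 probe sets, from 5.05, 5.13 and 4.89 to 4.19, 4.14, 4.14 and 4.20 (change -0.85, adjusted p = 0.0278). That probe set ended at background, and the other 2 probe sets of chinmo, also near background, had changes of 0.26 and 0.01. Groups did not overlap for any of the 3 genes. Apart from gcm, Nagk, CG13101, CG12910 and repo, each of the 8 remaining genes lost its call without some single arrays. CG1648 kept it without control 2, gcm 1 and gcm 2, chinmo without control 2, control 4 and gcm 1, and Jhbp1 only without gcm 1. The other 5 kept it without control 2 and without gcm 1. Over these 8 genes the highest adjusted p without 1 array was 0.164 to 0.291.

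**Figure D2:**
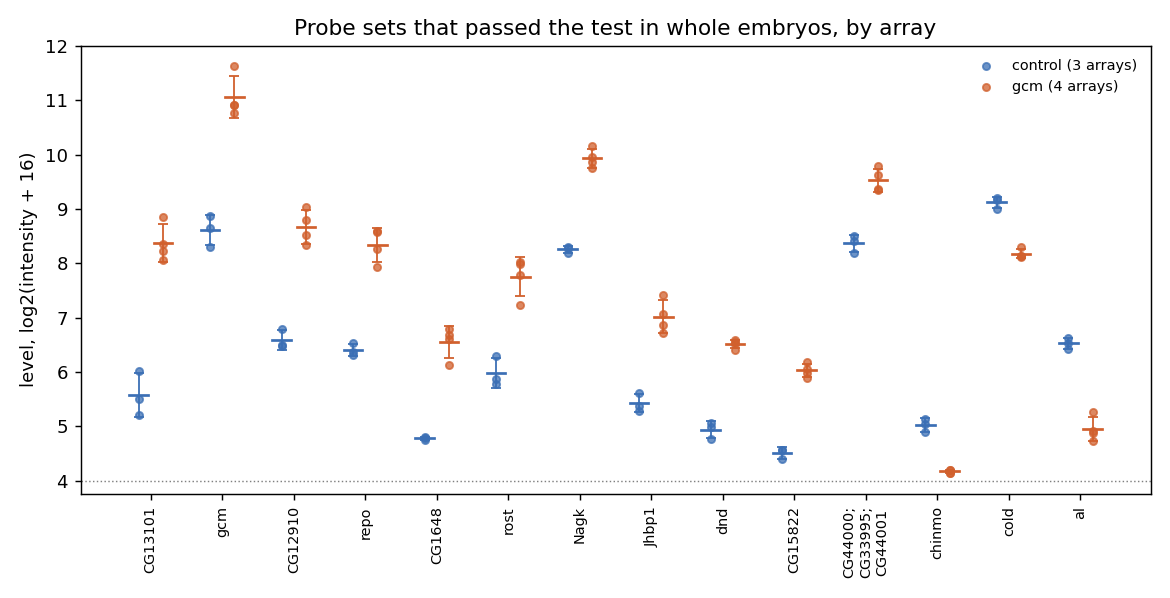
Level, log2(intensity + 16), of the 14 called probe sets on the 3 control arrays (blue) and 4 gcm arrays (orange). Each point is an array, long ticks are group means, bars are the SD, and the dotted line at 4 is an intensity of 0. All 14 probe sets separate the groups, and gcm 1 is the highest array for gcm itself.

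At 1 site, 2 called genes were chromosomal neighbours. rost (2L, 8985936 to 8989539) lies 1064 bases from CG13101, and on the other side CG9541 (2L, 8970520 to 8975428) lies 2406 bases from it. CG9541, named after its values were seen, read 4.41, 4.44 and 4.58 on controls and 6.95, 6.17, 5.51 and 6.21 on gcm arrays, with no overlap (change 1.73, SE 0.31, adjusted p = 0.124, blocked 0.0315). CG18662, a gene that overlaps CG13101, read near background in both groups and had a change of -0.20. repo overlaps the end of CG7156, which read 6.55, 6.62 and 6.22 against 6.73, 7.57, 7.53 and 7.4, a change of 0.85 without overlap (adjusted p = 0.177). CAP, which overlaps CG12910 and was also named after its values were seen, had changes of 0.86 and 0.56 without overlap in 2 of its 4 probe sets, uncalled in the main test (adjusted p of 0.197 and 0.374). The blocked test called the first of them (blocked 0.0484). Of the other measured genes within 5000 bases of a called gene, none passed the test. Whether probes of overlapping genes also detect each other's transcripts was not tested.

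Maternal transcripts stood out among genes that separated the groups without passing the main test. These RNAs are loaded into the egg and most of them are cleared before gastrulation. smg (smaug), an RNA-binding protein that clears maternal messages, read 7.63, 9.68 and 6.89 on controls and 10.23, 11.31, 10.08 and 10.55 on gcm arrays. Its change of 2.48 (SE 0.57) had an adjusted p of 0.15 by limma and a blocked value of 0.0292. twe (twine), a Cdc25 phosphatase of meiosis, read 5.75, 7.27 and 5.99 against 7.67, 9.08, 8.51 and 8.87 (adjusted p = 0.124, blocked 0.0231). tor (torso), the receptor that patterns the embryo's ends, read 5.19, 6.63 and 5.45 against 7.10, 7.97, 7.79 and 7.80 (adjusted p = 0.124, blocked 0.0292). For these genes control 2 was the highest control, and no gcm array overlapped it. bcd (bicoid), the anterior determinant, read 5.86, 6.5 and 5.62 against 7.81, 8.17, 7.41 and 7.50 (adjusted p = 0.0827, blocked 0.0146). ea (easter), a protease of dorsoventral patterning, had a change of 1.26 (adjusted p = 0.15, blocked 0.0292).

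Over the whole list of maternal and germ cell genes, 35 of 38 were measured. The list was made with earlier results of these arrays known, among them those of twe, tor and bcd. Its shares are therefore not independent of those results. None passed the main test, and 8 of the 35 were called higher in the blocked test, beside 172 of all 13966 probe sets. Groups separated upward for 10 members (28.6%) and downward for 1 (2.86%), against 5.29% and 6.95% of all probe sets. Such shares vary with the level: at mean levels of 6 to 8 they were 6.98% upward and 9.89% downward, and at 8 to 10 they were 9.15% and 13.6%. The median change was 0.22, beside -0.02 over all probe sets, with quartiles of -0.15 and 1.05. The member that separated downward was gcl, a germ cell formation gene, at -0.42. On deposited intensities 4 members (11.4%) separated upward and 4 (11.4%) downward, against 0.852% and 16.8% of all probe sets. The median there was -0.03, beside -0.19 over all probe sets. With the array labelled whole control 3 put back, 8 (22.9%) separated upward, against 3.06% of all probe sets. Whether the embryos of the 2 groups were of the same age within the stage was not tested.

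Other large differences without overlap ran through genes of varied function. Higher with gcm were CG3618 (2.31), Drep2, a relative of DNA fragmentation factor (2.04), mol (moladietz) in both of its probe sets (2.0 and 1.68), CG7730 (1.98), the ubiquitin ligase Kcmf1 (1.97), tamo (1.93), galectin (1.65), the iron regulatory protein Irp-1B (1.46) and the formin DAAM (1.29). Their adjusted p-values lay between 0.116 and 0.15. All but Irp-1B passed the blocked test. CG11035 had a change of 0.97, from a mean level of 4.36 to 5.33, both close to background. Their changes in sorted cells lay between -0.42 and 0.37, and none was called there. Lower with gcm were unpg (unplugged), a homeobox gene of the nervous system and trachea (-1.32), CG8353 (-1.27, adjusted p = 0.0827, blocked 0.0264), CG3408 (-1.26), HipHop, a telomere capping protein (-1.11), CG3348 (-1.02), CG4511 (-1.0), ktub (king tubby, -0.96) and meru (-0.95 and -0.41 in its 2 probe sets). Of these, CG8353, HipHop and CG4511 passed the blocked test.

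Glial genes went both ways. Of 17 listed glial genes 13 were measured and 1, repo, was called higher. Groups separated upward for 3 (23.1%) and downward for 2 (15.4%), against 5.29% and 6.95% of all probe sets. At mean levels of 8 to 10 those shares of all probe sets were 9.15% and 13.6%. The median change of the glial genes was 0.05. moody, a receptor of blood-brain barrier glia, read 6.25, 6.43 and 6.06 on controls and 7.66, 6.88, 6.53 and 6.45 on gcm arrays, higher throughout but uncalled (change 0.63, SE 0.30, adjusted p = 0.384). htl (heartless), the FGF receptor of mesoderm and glia, had a change of 0.37 without overlap (adjusted p = 0.427). loco, a regulator of G protein signalling, drpr (draper) and NimC4, engulfment receptors, had changes of 0.19, 0.17 and 0.05 with overlapping groups. Lower were nrv2 (nervana 2), a sodium pump subunit of glia, at 8.17, 7.78 and 7.78 against 7.42, 6.49, 6.93 and 6.82 (change -1.0, adjusted p = 0.15, blocked 0.0493), and wrapper, an adhesion protein of midline glia (-0.72, adjusted p = 0.181). The gap junction gene Inx2 had a change of -0.31 with overlap.

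The hemocyte and tendon cell lists held no call. All 15 measured hemocyte genes overlapped between the groups, and their median change was -0.23, with laminin chains LanA, LanB2 and LanB1 at -0.63, -0.61 and -0.60 (adjusted p of 0.401, 0.338 and 0.263). The hemocyte gene Pxn (peroxidasin) had a change of -0.64 with an SE of 0.48, and the growth factor receptor gene Pvr of -0.31. Of 8 tendon cell genes none was called, and their factor sr (stripe) had a change of -0.36 (adjusted p = 0.595). The integrin genes mys and if had changes of -0.29 and -0.30, and Tsp (thrombospondin), their tendon ligand, of 0.34 with overlap and of -0.17 in its other probe set. Septate junction genes had a median of -0.23 over 11 members and no call, with 3 (27.3%) below every control. Of all probe sets 6.95% were, and 13.6% of those at mean levels of 8 to 10. The septate junction list leaves out cold, which was called lower. Tsf2 had a change of -0.50 (adjusted p = 0.221), the claudin kune of -0.42 (adjusted p = 0.233) and the Ly6 gene bou of -0.49. The scaffold gene vari had the highest change of the list, 1.07, at 4.75, 5.5 and 4.52 on controls and 5.18, 6.67, 5.87 and 6.26 on gcm arrays, overlapping groups (adjusted p = 0.247).

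Neural precursor genes were mostly lower without passing the test, while neuronal genes went both ways. nerfin-1, a zinc finger gene of newborn neurons, read 8.75, 8.69 and 8.04 on controls and 7.71, 6.99, 7.16 and 7.0 on gcm arrays in the brighter of its 2 probe sets (change -1.28, SE 0.24, adjusted p = 0.124, blocked 0.0338). All gcm arrays lay below all controls there, while the other probe set had a change of -0.16 with overlap. fne, an Elav relative that binds RNA in neurons, had a change of -0.59 (adjusted p = 0.370), and the sodium channel gene para of -0.35. The motor neuron gene HGTX had changes of 0.04 and -0.24 in its 2 probe sets, near background. Of 19 neuronal genes 8 (42.1%) were higher and 11 lower, beside 46.5% of all probe sets that were higher. The median of the 19 was -0.19. Of 27 neuroblast genes 22 were lower, with a median of -0.37 and no call. The neuroblast factor dpn (deadpan) read 8.60, 8.46 and 8.20 against 8.20, 7.59, 7.27 and 7.71, and the column genes ind and Dr had changes of -0.75 and -0.54 (adjusted p of 0.195, 0.234 and 0.191). The segment polarity gene gsb had a change of -0.59 with overlap. With all 7 arrays dpn, ind and Dr were the 3 neuroblast genes (11.1%) that separated downward, dpn by less than the rounding. Of all probe sets 6.95% did, with 9.89% at mean levels of 6 to 8 and 13.6% at 8 to 10. Without gcm 1, 17 neuroblast genes (63%) did, when 12.2% of all probe sets did. On gcm 1 the median deviation of the 27 genes from their means over the 7 arrays was 0.37, as on control 1 (0.35), against -0.25 to -0.29 on the other gcm arrays.

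Proneural and Notch pathway genes were also mostly lower. Of 11 proneural genes 9 were lower and 5 (45.5%) separated downward, against 6.95% of all probe sets and 9.89% of those at mean levels of 6 to 8, with a median of -0.28 and no call. ato (atonal), the factor of chordotonal and photoreceptor precursors, read 7.76, 7.89 and 7.77 on controls and 7.48, 6.89, 7.04 and 7.01 on gcm arrays (change -0.71, SE 0.18, adjusted p = 0.162). l(1)sc, tap and phyl had changes of -0.65, -0.56 and -0.46 (adjusted p of 0.227, 0.183 and 0.258). In the Notch list 18 of 27 genes were measured, and N, Dl, Ser and Su(H) were among those that were not. Of the 18, 13 were lower, with a median of -0.31. Groups separated downward for 4 (22.2%) and upward for 1 (5.56%), against 6.95% and 5.29% of all probe sets. At mean levels of 8 to 10 those shares of all probe sets were 13.6% and 9.15%. The Notch list members with the smallest p were E(spl)m2-BFM (-0.57, adjusted p = 0.15), E(spl)m5-HLH (-0.47) and Brd (-0.44), genes of the E(spl) and Brd complexes. The corepressor gro (groucho) ran the other way at 0.65 in 1 probe set without overlap (adjusted p = 0.239) and at -0.10 in another.

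Segmentation genes were the list with the lowest median, -0.43. All 19 measured members were lower with gcm, and 8 (42.1%) lay below every control. Of all probe sets 6.95% did, and 9.89% of those at mean levels of 6 to 8. Of the 8 list members al passed the main test. The list was made with earlier results of these arrays known, among them those of al and fd96Cb. Its shares are therefore not independent of those results. The forkhead gene fd96Cb read 7.78, 7.71 and 8.20 on controls and 6.97, 6.20, 6.61 and 6.6 on gcm arrays, a change of -1.30 (SE 0.22, adjusted p = 0.116, blocked 0.0450). Its neighbour fd96Ca had a change of -0.86 with overlap. odd (odd skipped), a pair rule gene, read 8.58, 8.24 and 8.12 against 8.02, 7.59, 7.76 and 7.63 (change -0.57, adjusted p = 0.197). Segment polarity genes en (engrailed), hh (hedgehog) and ptc (patched) had changes of -0.62, -0.43 and -0.02. The number that separated downward was 12 without gcm 1 and 11 without control 2, when 12.2% and 13.8% of all probe sets did. On deposited intensities the median was -0.67, beside -0.19 over all probe sets.

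**Figure D3:**
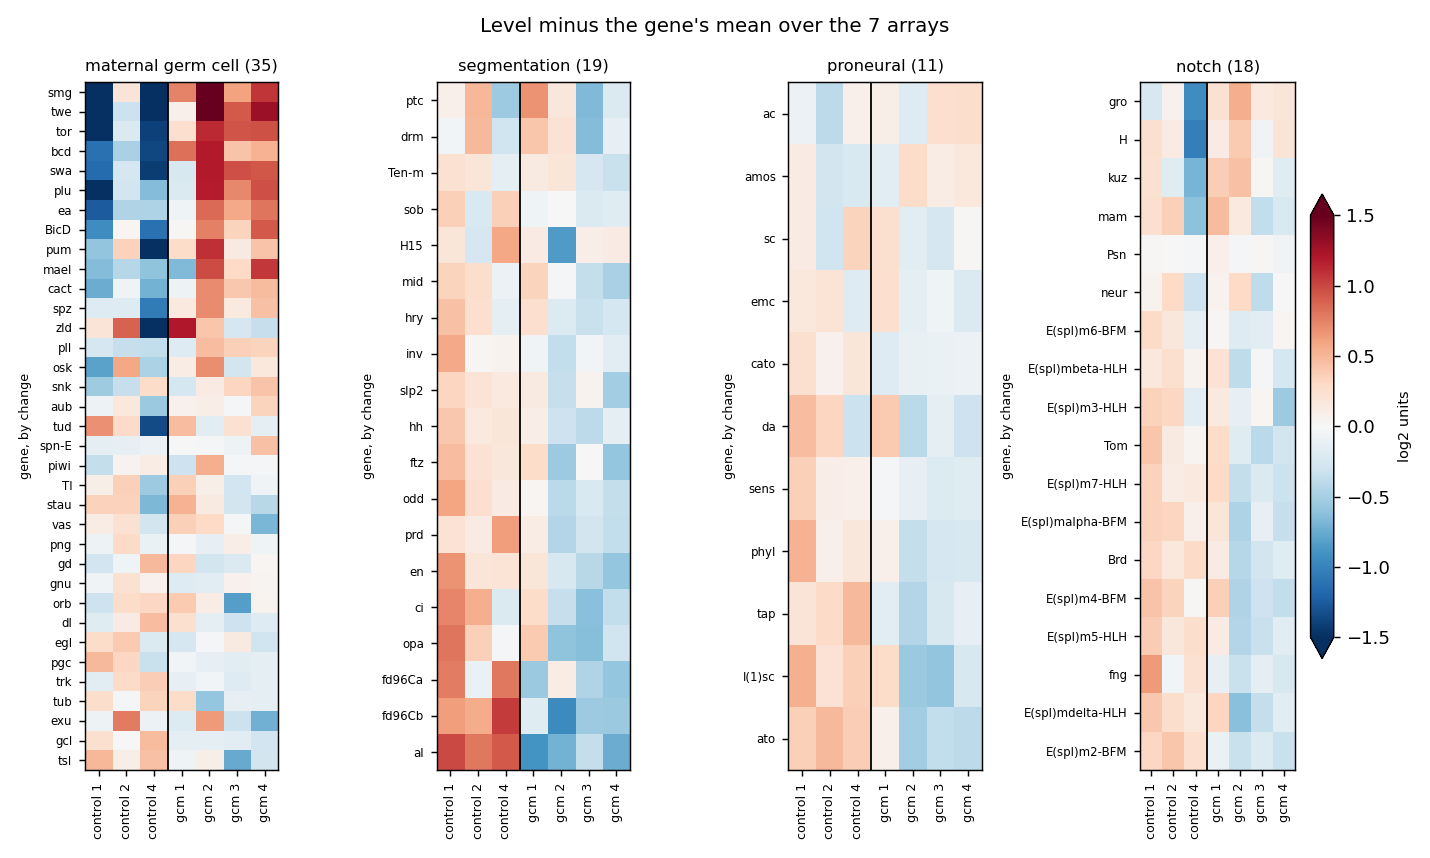
Level of each gene minus its mean over the 7 arrays, in log2 units, with colours limited at 1.5, for the maternal and germ cell, segmentation, proneural and Notch lists. Rows are genes ordered by change and columns are arrays, the 3 controls left of the line. Maternal genes smg, twe, tor and bcd are low on controls and high on gcm arrays, and gcm 1 lies between the controls and the other gcm arrays for many segmentation genes.

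Remaining tissue and process lists were described the same way. Amnioserosa and dorsal ectoderm genes had a median of -0.38, with 12 of 13 lower, among them Doc1, a T-box gene (-0.90, adjusted p = 0.168), the BMP ligand dpp (-0.66, adjusted p = 0.282), the GATA factor pnr (-0.53) and Ance (-0.44). The mesoderm list had a median of -0.19, with bap (-0.64, adjusted p = 0.145) below every control and twi (twist) at -0.42 with overlap. Its member bib (big brain), better known as a neurogenic gene, was also below every control (-0.66). Tracheal genes had a median of -0.27. The FGF ligand bnl (branchless), at levels near background, had a change of -0.60 (adjusted p = 0.124), knrl of -0.62, kni of -0.51 and sano of -0.27. The yolk protein gene Yp2 had a change of 0.86 without overlap (adjusted p = 0.218), within a list of 12 endoderm and yolk genes whose median was -0.05. In that list grn had a change of -0.36, and the hindgut genes byn and cad of 0.26 and 0.20, all with overlap. On deposited values byn stood at 0.00 and cad at -0.04. The 6 salivary gland genes had a median of -0.33, with eyg at -0.46, PH4alphaSG2 at -0.40, pip at -0.36 and sage at -0.29, all with overlap. Of 13 listed apoptosis genes 9 were measured, without rpr, hid, Diap1 and Drice. The 9 measured had a median of -0.10, with 1 (11.1%) separating each way, against 5.29% upward and 6.95% downward over all probe sets. egr (eiger), the TNF ligand, read 6.42, 6.37 and 5.96 on controls and 6.91, 6.65, 6.74 and 6.88 on gcm arrays, above every control (change 0.55, adjusted p = 0.260). grnd, a TNF receptor, was below every control (-0.57, adjusted p = 0.252). Dark, the apoptosome adaptor, had a change of -0.39 and Dronc, an initiator caspase, of 0.71, both with overlap.

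Lists tied to age and stress were also read. Early zygotic genes had a median of -0.09 over 23 members and genes of later differentiation one of -0.21 over 21. fog, a ligand of gastrulation, had a change of 0.28 without overlap (adjusted p = 0.415). slam, a gene of cellularisation, had a change of 0.54, the epidermal factor grh (grainy head) of -0.70, and pio of -0.57, all with overlap. The synaptic gene nSyb had a change of 0.58 near background. Another, brp, also near background, had a change of -0.41 in its brightest probe set and of 0.14 and 0.02 in its others. Of 18 genes in the heat shock list 8 were measured, without the listed Hsp70 genes and Hsp83. Of the 8 measured, 7 were lower, with a median of -0.25. Hsp68 read 6.12, 6.07 and 6.17 on controls and 5.16, 5.17, 5.88 and 4.95 on gcm arrays (change -0.83, adjusted p = 0.198). Hsp27 had a change of -0.56 and DnaJ-1 of -0.34. Jra, a Jun transcription factor gene that the list also holds, had a change of -0.31. Of 17 cell cycle genes 7 (41.2%) separated downward and 2 (11.8%) upward, against 13.6% and 9.15% of all probe sets at mean levels of 8 to 10. CycB and CycD, the cyclins of mitosis and of growth, had changes of 0.50 and 0.68 (adjusted p of 0.171 and 0.166), and the replication genes Mcm2 and RnrL of -0.55 and -0.59 (0.155 and 0.168). The 37 ribosomal protein genes had a median of 0.01, with 1 (2.7%) separating each way, against 5.29% upward and 6.95% downward over all probe sets. RpL28, RpS5b and RpLP0 had changes of 0.34, 0.26 and 0.18, and RpLP0-like of -0.31 (adjusted p of 0.345, 0.386, 0.493 and 0.254). On deposited values RpLP0 stood at -0.07.

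**Figure D4:**
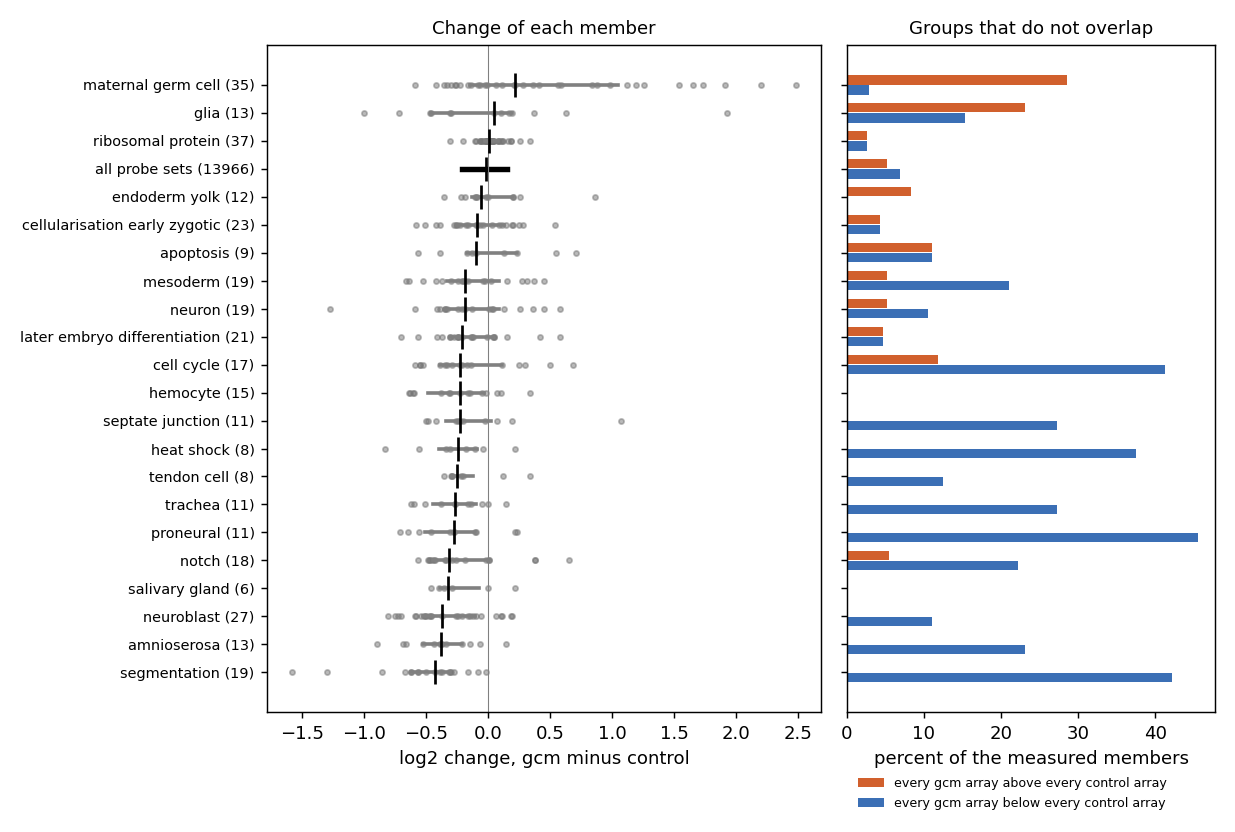
Left, change (gcm minus control, log2) of every measured member of each list (points), with the median (tick) and quartiles (bar) and, in black, those of all 13966 probe sets. Right, percent of members whose gcm arrays all lie above (orange) or all below (blue) the controls, beside 5.29% and 6.95% of all probe sets. The maternal list has the highest median, 0.22, and the segmentation list the lowest, -0.43.

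The same probe sets were read in sorted neuroectodermal cells, on 7 other arrays, normalised on their own. Whether these cells came from other batches of embryos than the whole embryo extracts is not stated in the labels. In sorted cells limma called 37 probe sets (0.265%), 30 higher and 7 lower, between 3 distinct gcm arrays and 4 controls. The count was 18 without sorted control 1, 22 without sorted control 3, and 20 and 19 without sorted gcm 2 and 4, and 14 with the replicate number as a block. Both comparisons called 6 probe sets, 42.9% of the whole embryo calls and 16.2% of the sorted calls, all 6 higher with gcm in both. They are gcm, repo, CG12910, Nagk, CG15822 and the probe set assigned to 3 genes. The changes in whole embryos and sorted cells were 1.93 and 2.27 for repo, 2.08 and 3.15 for CG12910, 1.68 and 2.49 for Nagk, 1.52 and 2.39 for CG15822, and 2.44 and 1.77 for gcm. Of the 30 sorted calls that rose, 28 were positive in whole embryos and 21 separated the groups there, with a median whole embryo change of 0.65. Of all probe sets, 46.5% were positive in whole embryos and 5.29% separated upward. All 7 that fell in sorted cells were negative in whole embryos, with a median of -0.51. Of these 7, 2 separated downward, as did 6.95% of all probe sets.

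The other whole embryo calls are given with their values in sorted cells. Jhbp1 and dnd had changes there of 1.34 and 1.32 without a call (adjusted p of 0.112 and 0.0542), and CG13101 of 1.13 (0.313). rost had a change of 0.45 and CG1648 of 0.00. Of the genes that fell, al had a change of -1.23, chinmo of -1.04 and cold of -0.33 in sorted cells, none of them called. The maternal genes smg, twe, tor and bcd had changes there of -0.21, 0.10, -0.12 and 0.09.

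Whether a change differed between the 2 preparations was tested as an interaction by limma on all 14 arrays, normalised together. Its differences therefore need not equal those between the changes given for each preparation, which come from separate normalisations. The interaction passed for 4 probe sets, all with a smaller effect in whole embryos, and for 0 of the 14 whole embryo calls. At an unadjusted p under 0.05 there were 1464 probe sets. Without gcm 1 or control 2 of the whole embryos it passed for 64 and 17 probe sets, without sorted control 4 for 14, without sorted gcm 2 for 7, and for 2 without sorted control 1 or 3, whole control 1 or 4, or gcm 2, 3 or 4 of the whole embryos. Ect3, a beta-galactosidase, rose by 3.48 in sorted cells. In whole embryos it read 8.38, 8.15 and 8.81 on controls and 9.87, 9.33, 9.60 and 9.25 on gcm arrays, a change of 1.07 without overlap (adjusted p = 0.124), and the difference was -3.06 (SE 0.32, adjusted p = 9.24e-04). MFS16, a major facilitator family transporter, differed by -1.99 (SE 0.24, adjusted p = 0.00333). Its whole embryo levels were 8.67, 8.31 and 8.47 against 8.57, 8.38, 8.44 and 8.29, beside a mean of 5.84 in sorted control cells, which were normalised separately. Sardh, a sarcosine dehydrogenase, stood near background in all whole embryo arrays, between 4.79 and 5.0, and differed by -2.19 (adjusted p = 0.0348). CG3841, at 4.06 to 4.25 in whole embryos, differed by -1.50 (adjusted p = 0.0348).

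**Figure D5:**
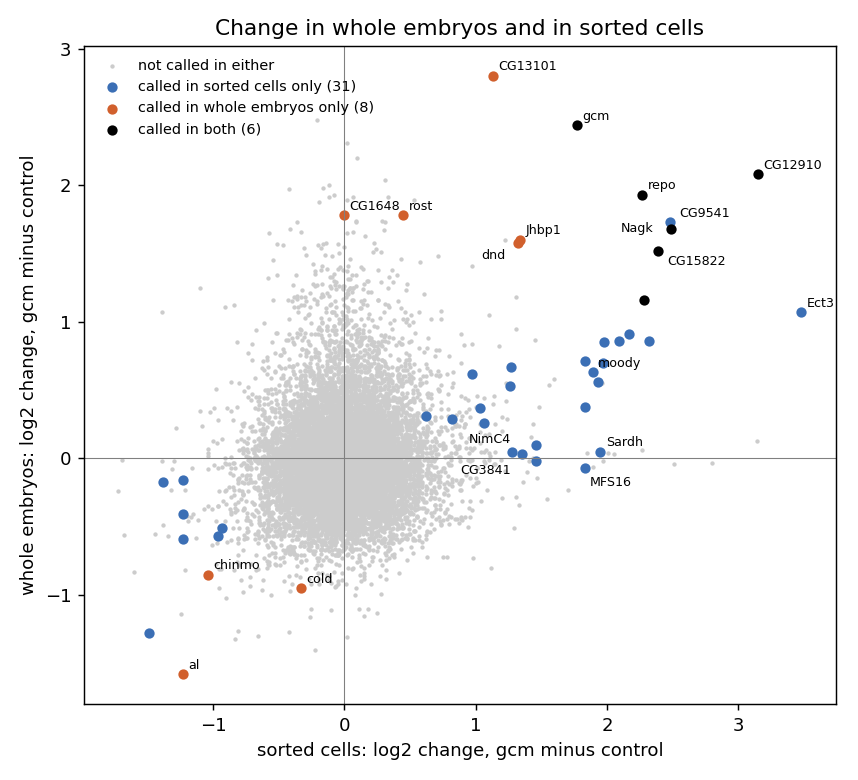
Change in sorted cells (x axis) and in whole embryos (y axis), each gcm minus control in log2 units, for all probe sets (grey). Black points are the 6 called in both, orange the 8 called in whole embryos and not in sorted cells, and blue the 31 called in sorted cells and not in whole embryos. CG12910, Nagk, repo and gcm are high on both axes, and Ect3, MFS16 and Sardh are higher in sorted cells.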

How the data were processed

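The deposited table of the authors holds 1 linear intensity per probe set and array, and the method by which it was computed and scaled is not named in the labels. The 7 whole embryo arrays were quantile normalised together, 16 was added and log2 taken, in R 4.3.3 with limma 3.58.1. The 44 control probe sets were left out. Groups were compared with lmFit and eBayes with an intensity trend, two-sided, with Benjamini-Hochberg adjustment over 13966 probe sets, and called at an adjusted p under 0.05. Of these, 12443 had 1 gene symbol in the platform table, 327 several and 1196 none, and 12394 matched assembly release 6, which gave positions. Sorted arrays were fitted alone, with 1 array that was deposited under both number 2 and number 3 entered once. For the test of the difference, whole embryo and sorted arrays were normalised together.

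Whole embryo arrays of the same number had correlations of deviations of 0.329, 0.262 and 0.188, against -0.283 to 0.282 for other pairings. The highest of the others, control 4 with gcm 3 at 0.282, exceeded the matched values of 0.262 and 0.188. No label states a pairing, so the blocked values rest on an assumption that was not tested. gcm 3 has no partner in this block. The pipeline was tested on simulated data.

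Members and gene lists were chosen with earlier results of these data known. Lists use 1 probe set per gene, the one of the highest mean, and 352 of 436 listed symbols were measured. The text names gcm, gcm2 and repo, the calls, up to 12 rises and 12 falls without overlap at a level of 6 or more, up to 4 members per list by smallest p, and genes known from earlier results. CG9541, CG7156, CG3841, CAP and the list members gcl, en, hh, ptc, loco, drpr and Pxn were named after their values were seen. Alternatives were pseudocounts of 1 and 64, deposited values, median centring, the dimmest 40% left out, no trend, a robust variance prior, array weights, the block, all arrays together, all 4 whole control arrays and each array left out. A planned count of gcm motifs in promoters was not run.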

Additional observations from a re-analysis of the deposited data

Results flagged for a closer look

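A single array stood apart from its group for some named genes, by the gap to the nearest other array over the group's range. Of 125 groups of arrays examined, 9 stood out, where chance gives about 1 in 20. On gcm 1, CG7730 stood at 6.91, against 8.15 to 8.35 on the other gcm arrays, kune at 9.82 and grh at 7.92. On gcm 2, DAAM stood at 7.91, ind at 5.27 and sage at 5.71. On gcm 4, cold stood at 8.30. The array labelled whole control 3 stood out for gcm at 13.12 and for repo at 10.79 among the 4 arrays of that label.

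The effect of gcm differed between whole embryos and sorted cells, by the test of the difference in limma, for Ect3 (-3.06), Sardh (-2.19), MFS16 (-1.99) and CG3841 (-1.50), each smaller in whole embryos. CG3841 lies on 2L from 9589476 to 9591783, beyond the end of gcm at 9581745.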

How the results depend on the processing

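The 13 called genes with 1 symbol kept their sign under every alternative in which they could be computed, 20 of them for CG15822 and chinmo and 21 for the others. Of 21, gcm, Nagk and CG13101 were called in 18, CG12910 in 17 and repo in 16. The 14 calls in whole embryos became 476 with array weights, 22 with the dimmest 40% left out, 62 with all arrays together and 0 with all 4 whole control arrays. With the replicate number as a block, which pairs the arrays, they became 199, and with the block and median centring 320, with the block and deposited values 0, with the block and all 4 whole control arrays 0. Leaving out 1 array gave 3 to 524 calls without the block and, with it, 73, 70, 12, 47, 33, 209 and 1. The 37 calls in sorted cells became 20 on deposited values, 25 with median centring, 57 with array weights, 109 with all arrays together, 14 with the block, 10 with the block when the duplicated array was numbered 3, and 18 to 39 without 1 array. The 4 calls of the difference became 2 with a pseudocount of 1, with median centring, with the dimmest 40% left out and with the block under either number, 7 with a pseudocount of 64, 53 with array weights, 1 with all 4 whole control arrays, and 2 to 64 without 1 array.

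Signs turned for uncalled genes. With all 4 whole control arrays, with or without the block, moody stood at -0.32, htl at -0.34, Sardh at -0.15, CG3841 at -0.18, egr at -0.15, Tsp at -0.09, pnr at 0.06, Brd at 0.38 and RpLP0-like at 0.51. On deposited values NimC4 stood at -0.15, Sardh at -0.12 and CG3841 at -0.01, and with the block -0.21, -0.15 and -0.01. There byn stood at 0.00, cad at -0.04, RpLP0 at -0.07 and the dimmer HGTX probe set at -0.11, and with the block byn stood at -0.09, RpLP0 at -0.16, RpL28 at -0.05 and RpS5b at -0.02. Without 1 array NimC4 ran from -0.07 to 0.13, CG3841 from -0.02 to 0.08, MFS16 from -0.15 to 0.02, the dimmer nerfin-1 probe set from -0.51 to 0.15, and the HGTX probe sets from -0.08 to 0.20 and from -0.46 to 0.05. The causes were not tested, apart from fewer arrays or probe sets where an alternative leaves them out.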
